A study of Saccharomyces cerevisiae with 24 samples.

Results

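The hydrophilin and stationary phase genes GRE1, SIP18, HSP12, SPG1, SPG4, SPG5 and PHM7 of budding yeast were followed in all 24 libraries of the series. They are 7 of the 7126 genes in the table, and they were chosen by name because GRE1, SPG1 and SPG4 were among the steepest risers in wild-type cells between 0 h and 1 h. The rise in wild-type cells at 1 h therefore describes the choice and is given without a test.

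Hydrophilins are small, very hydrophilic proteins that cells make when water or nutrients run short, and they protect other proteins during drying. GRE1 and SIP18 encode a pair of such hydrophilins that arose by the whole genome duplication, and both are needed to survive desiccation and rehydration. HSP12 encodes a small, soluble stress protein that associates with the plasma membrane. SPG1 and SPG4 are required for survival at high temperature in stationary phase, the non-growing state that follows nutrient exhaustion. SPG5 is needed for proteasome assembly during quiescence, and PHM7 encodes a membrane protein of unknown function named for its regulation by phosphate. Many genes of this kind are switched on by the zinc finger activators Msn2 and Msn4, which bind the stress response element, and by Gis1, which binds the related post-diauxic shift element. Gis1 and the histone demethylase Rph1 are paralogs.

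Bulk RNA of the laboratory strain CEN.PK was sequenced in 4 genotypes at 3 times, with 2 libraries for each of the 12 groups. The genotypes were rph1Δ, which lacks the demethylase Rph1 that removes methyl groups from a lysine of the histone H3 tail (H3K36), set2Δ, which lacks the Set2 enzyme that adds them, H3K36A, whose histone H3 has alanine at that position, and WT. The 0 h libraries were untreated log-phase cells of the rich medium YPL, and the 1 h and 3 h libraries came after a wash and transfer to the minimal medium SL. Every group shared the CEN.PK background, and the labels name no other allele. The labels do not say that replicates were separate cultures, so the p-values measure only the spread between these samples, and in bulk RNA fewer cells with a transcript and less transcript per cell cannot be told apart.

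The libraries held 6623458 to 7677684 counts each. Summed over 6 libraries, RPH1 had 8 counts in rph1Δ and 3336 in WT, and SET2 had 0 counts in set2Δ (which allows up to 3) and 1641 in WT. The H3 genes HHT1 and HHT2 summed to 5 and 2 counts in H3K36A, against 16771 and 23721 in WT, so the counts do not show the alanine substitution itself, and the labels do not say where H3K36A carries its altered H3 gene. The rph1Δ libraries differed from all others in their mating type transcripts. HMRA1, read as the a1 transcript of a cells, had 0 counts in all 6 of them and 31 to 118 in each of the other 18, MFA1, an a-factor gene, had 1 to 19 counts in rph1Δ libraries and 95 to 329 in WT libraries, and MF(ALPHA)1, an alpha-factor gene, had 1278 to 22771 counts in rph1Δ libraries and 6 to 19 in WT libraries. An effect of losing Rph1 and an effect of mating type cannot be told apart here. The replicates of 3 groups lay further apart than the rest, at a replicate chi-square over its degrees of freedom of 14.9 in set2Δ at 0 h, 9.77 in H3K36A at 0 h and 12.8 in WT at 3 h, against 2.72 to 6.78 in the other groups.

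All 7 genes have a single exon and no overlapping gene in the deposited annotation, which gives coordinates in sacCer3. GRE1 (YPL223C) lies on the minus strand of chromosome XVI at 128632 to 129138, SPG1 (YGR236C) on the minus strand of chromosome VII at 962530 to 962817, and HSP12 (YFL014W) on the plus strand of chromosome VI at 107256 to 107585. Chromosome XIII carries 3 of them on its plus strand, SPG4 (YMR107W) at 483014 to 483361, SIP18 (YMR175W) at 611016 to 611255 and SPG5 (YMR191W) at 645656 to 646777. PHM7 (YOL084W) is on the plus strand of chromosome XV at 162356 to 165331. GRE1, SIP18, HSP12, SPG1 and SPG4 are short, at 507, 240, 330, 288 and 348 exonic bases, while SPG5 has 1122 and PHM7 2976 and the median tested gene has 1074.

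The promoters of the steepest risers, GRE1, SPG1 and SPG4, are shown beside those of SPG5, which rose least, and HSP12, a standard stress reporter. Each run is the 300 bases before the start codon on the gene's own strand, read from the R64 reference (strain S288C, not CEN.PK), whose coordinates for these genes equal those of the table. Capitals mark AGGG, or CCCT where the match is on the other strand.
GRE1: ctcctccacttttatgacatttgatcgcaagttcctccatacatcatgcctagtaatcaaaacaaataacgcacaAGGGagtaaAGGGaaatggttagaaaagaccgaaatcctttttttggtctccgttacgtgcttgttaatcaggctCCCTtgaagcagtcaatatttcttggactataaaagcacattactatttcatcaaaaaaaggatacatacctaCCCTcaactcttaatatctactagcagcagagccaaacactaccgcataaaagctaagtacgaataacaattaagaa
SPG1: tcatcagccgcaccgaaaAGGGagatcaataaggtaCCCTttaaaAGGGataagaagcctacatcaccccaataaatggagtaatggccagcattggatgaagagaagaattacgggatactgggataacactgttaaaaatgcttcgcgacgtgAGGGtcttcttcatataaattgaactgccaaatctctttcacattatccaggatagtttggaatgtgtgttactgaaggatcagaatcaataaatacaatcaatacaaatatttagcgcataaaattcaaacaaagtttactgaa
SPG4: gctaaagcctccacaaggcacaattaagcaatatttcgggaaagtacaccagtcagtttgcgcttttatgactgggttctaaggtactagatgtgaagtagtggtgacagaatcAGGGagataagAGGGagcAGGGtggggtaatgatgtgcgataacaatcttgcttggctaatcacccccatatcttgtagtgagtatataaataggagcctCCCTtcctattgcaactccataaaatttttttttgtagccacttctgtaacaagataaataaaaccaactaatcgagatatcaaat
SPG5: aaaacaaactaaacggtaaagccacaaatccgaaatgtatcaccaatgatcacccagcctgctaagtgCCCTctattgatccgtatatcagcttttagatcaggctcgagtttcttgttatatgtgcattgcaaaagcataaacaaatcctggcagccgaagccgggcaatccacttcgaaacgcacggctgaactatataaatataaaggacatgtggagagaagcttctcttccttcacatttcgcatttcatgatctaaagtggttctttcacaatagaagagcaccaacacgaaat
HSP12: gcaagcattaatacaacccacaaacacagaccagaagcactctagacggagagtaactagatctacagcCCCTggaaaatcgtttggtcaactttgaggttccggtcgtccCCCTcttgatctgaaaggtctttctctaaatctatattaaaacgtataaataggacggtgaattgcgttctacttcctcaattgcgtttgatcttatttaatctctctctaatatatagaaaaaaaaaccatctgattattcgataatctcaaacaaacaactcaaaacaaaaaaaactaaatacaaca
These windows are chrXVI:129139-129438 (minus strand) for GRE1, chrVII:962818-963117 (minus strand) for SPG1, chrXIII:482714-483013 for SPG4, chrXIII:645356-645655 for SPG5 and chrVI:106956-107255 for HSP12.

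The full core of the stress response element, AGGGG on either strand, occurred 2 times in the HSP12 window and 1 time in that of PHM7 and was not found in the other 5 windows. At least 1 match was held by 22.2% of 6001 yeast windows of that length, and at least 2 by 3.45%. Windows of 600 bases reach past the end of the neighbouring gene for HSP12, PHM7, SPG5 and SPG1, where it lies 292, 341, 397 and 480 bases upstream in that order. Over 600 bases HSP12 held 5 matches, SIP18 3 and PHM7 2, and GRE1, SPG1, SPG4 and SPG5 none. Of 5999 yeast windows of 600 bases, 39.7% held at least 1 match, 10.7% at least 2, 2.43% at least 3 and 0.333% at least 5. The post-diauxic shift element, searched as TTAGGGAT and TAAGGGAT on both strands, and CACGTG, the core bound by the phosphate regulator Pho4, were found in none of the 7 windows of 300 bases, and 1.63% and 3.57% of all windows held them. The 4 letters AGGG that both stress elements share, a motif chosen after the windows had been seen and overlapping AGGGG, occurred 4 times in each of the GRE1, SIP18, SPG1 and SPG4 windows, 3 times in PHM7, 2 times in HSP12 and 1 time in SPG5. At least 4 matches were held by 5.57% of all windows and at least 1 by 71.7%. These matches describe letters only.

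**Figure D1:**
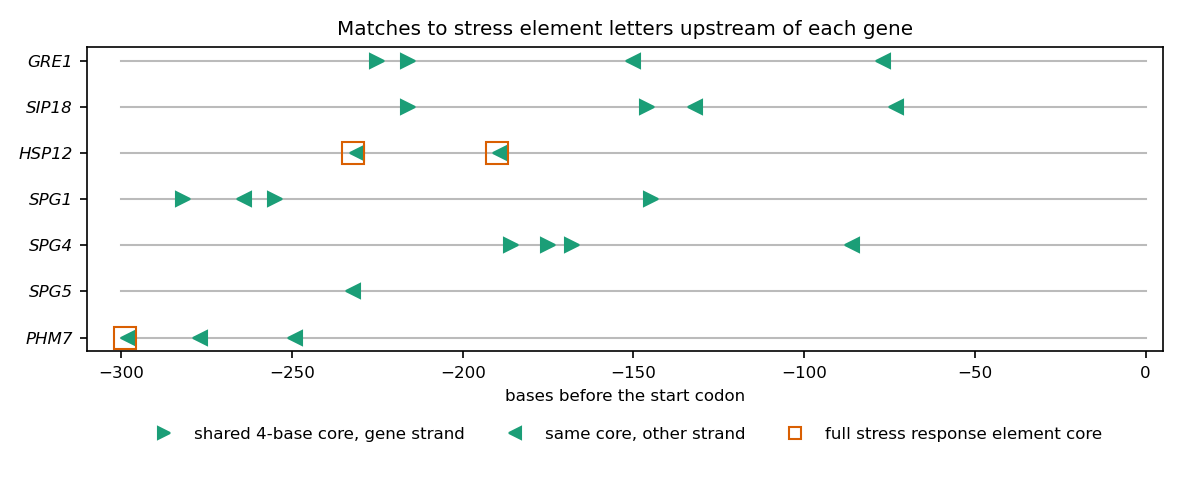
Positions of AGGG (arrowheads, pointing right on the gene's strand and left on the other) and of the full AGGGG core (open squares) in the 300 bases before the start codon of each gene, on an axis of bases before the start codon. GRE1, SIP18, SPG1 and SPG4 have 4 arrowheads each and no square, and HSP12 has 2 squares.

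Expression is given as the authors' FPKM, counts scaled to exon length and library total, which allows levels of different genes to be compared. Differences are log2 fold changes with their standard error from edgeR's quasi-likelihood test on the counts, scaled by TMM (a factor that sets most genes level), and a gene is called where its p, adjusted by Benjamini-Hochberg over the 6503 genes tested, is under 0.05. All 7 genes passed the filter on low values (FPKM of 1 or more in 2 or more libraries). FPKM divides by the library total and the test scales by TMM, so ratios of FPKM and the fitted differences need not be equal. With library totals as the scaling in place of TMM, the median log2 difference of all tested genes moved by 0.163 to 0.228 in set2Δ and H3K36A against WT at 1 h and 3 h, and by -0.27 to -0.219 at 3 h against 1 h in the 4 genotypes, and no tested difference of the 7 genes that was called with TMM changed sign. The choice of the genes used the WT libraries of 0 h and 1 h and favours genes that were low in WT at 0 h and high in WT at 1 h. Tests against WT at those times, and against the WT change, are therefore not independent of the choice, which favours mutant levels above WT at 0 h, mutant levels below WT at 1 h and a smaller rise in a mutant.

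**Figure D2:**
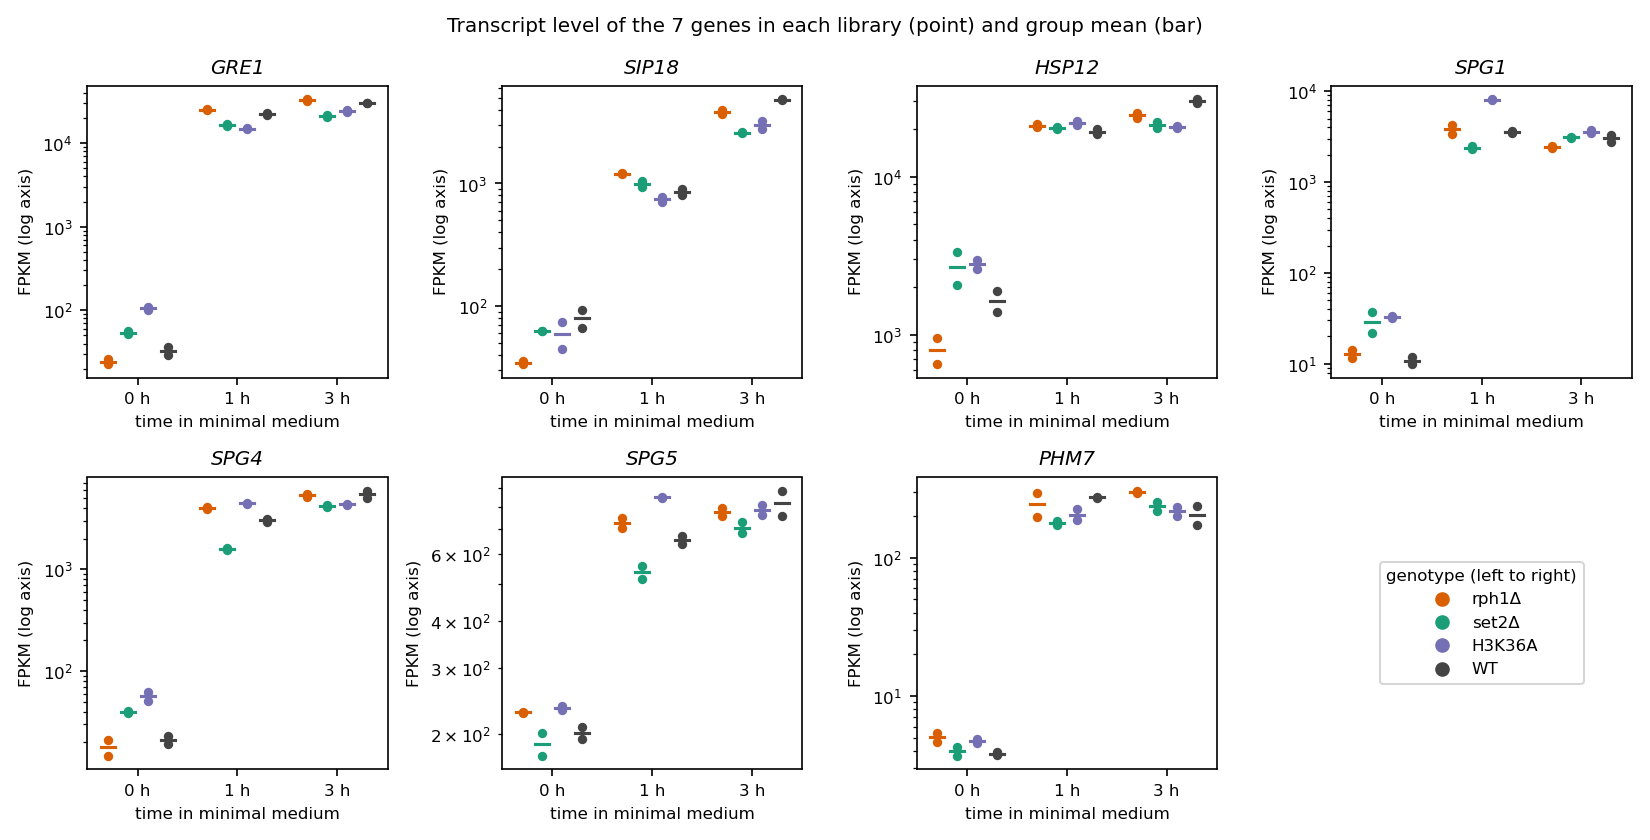
FPKM (log axis) of each gene in every library (points) with the group mean (bars), by time in minimal medium, with rph1Δ, set2Δ, H3K36A and WT from left to right at each time. All 7 genes are lowest at 0 h in every genotype, and the SPG1 points of H3K36A at 1 h, at 8005 and 8158 FPKM, stand above every other SPG1 point.

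GRE1, which was low in rich medium, became one of the most abundant transcripts of the cell. At 0 h it had 25.9 and 22.6 FPKM in rph1Δ, 56.2 and 52.1 in set2Δ, 102 and 111 in H3K36A, and 36.1 and 29.2 in WT. At 1 h it had 25552 and 24969 FPKM in rph1Δ, 16943 and 16203 in set2Δ, 15271 and 14641 in H3K36A, and 21923 and 22729 in WT. At 3 h the values were 31942 and 33566 in rph1Δ, 20802 and 21945 in set2Δ, 23420 and 25116 in H3K36A, and 30205 and 29866 in WT. The set2Δ and H3K36A libraries were thus the highest at 0 h and the lowest at 1 h and 3 h, with no overlap with WT at any of the times. In WT the fitted rise at 1 h was 9.31 ± 0.12 on the log2 scale, a 636-fold change and the largest of all genes tested, which is a description since it chose the gene.

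Here and for the genes below, the 0 h and 1 h tests against WT use libraries that chose the genes. Those tests are not independent of the choice, and only the 3 h tests are free of it. GRE1 was called against WT at every time in both set2Δ and H3K36A, as was SPG4. It was higher than WT at 0 h by 0.70 ± 0.13 in set2Δ (edgeR quasi-likelihood, adjusted p = 0.000195) and by 1.64 ± 0.12 in H3K36A (adjusted p = 1.2e-10). At 1 h its log2 difference from WT was -0.65 ± 0.08 in set2Δ and -0.75 ± 0.08 in H3K36A, and at 3 h it was -0.74 ± 0.08 and -0.54 ± 0.08 in those strains, all 4 called with adjusted p of 6.9e-06 or less. In rph1Δ it was not called at any time, with differences of -0.49 ± 0.15 at 0 h (adjusted p = 0.0576), 0.07 ± 0.08 at 1 h and -0.01 ± 0.08 at 3 h. Without replicate 2 of WT at 0 h the rph1Δ difference at 0 h was called (-0.63, adjusted p = 0.0383), as it was with DESeq2 (-0.50, adjusted p = 0.0355).

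SIP18, the paralog of GRE1, was far less abundant than GRE1 after the transfer. In FPKM it gained more between 1 h and 3 h than in the first hour, but on the log2 scale the first hour was the larger step. That first step was 4.97 in rph1Δ, 3.69 in set2Δ, 3.43 in H3K36A and 3.33 in WT. It had 35.2 and 33.4 FPKM in rph1Δ at 0 h, 62.5 and 62.5 in set2Δ, 44.9 and 73.8 in H3K36A, and 92.9 and 66.4 in WT. At 1 h these were 1187 and 1208 FPKM in rph1Δ, 1044 and 944 in set2Δ, 708 and 779 in H3K36A, and 904 and 810 in WT. By 3 h it reached 3708 and 3968 FPKM in rph1Δ, 2564 and 2643 in set2Δ, 2809 and 3236 in H3K36A, and 4809 and 4875 in WT, so that WT lay above all mutants at 3 h. From 1 h to 3 h SIP18 gained 2.79 ± 0.11 in WT, the largest gain of the 7 genes in that interval, and 1.95 ± 0.11 in rph1Δ, 1.66 ± 0.11 in set2Δ and 2.26 ± 0.11 in H3K36A, all called.

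Against WT, SIP18 was lower at 3 h in all 3 mutants, with differences of -0.47 ± 0.10 in rph1Δ (adjusted p = 0.0023), -1.14 ± 0.11 in set2Δ (adjusted p = 4.6e-09) and -0.91 ± 0.11 in H3K36A (adjusted p = 1.9e-07). It was the member with the largest shortfall at 0 h in rph1Δ, 2.41-fold lower than WT (-1.27 ± 0.20, adjusted p = 0.000144), and in that strain it was then 0.38 ± 0.11 above WT at 1 h (adjusted p = 0.0207). That 1 h call was lost without replicate 2 of WT at 1 h (0.29) and without replicate 1 (0.40) or replicate 2 (0.35) of rph1Δ at 1 h. In H3K36A at 1 h the difference of SIP18 from WT was -0.38 ± 0.11 (adjusted p = 0.0068). With library totals as the scaling that difference was -0.20 (adjusted p = 0.124), without replicate 1 of WT at 1 h it was -0.29, and without replicate 1 of H3K36A at 1 h it was -0.30, none of them called.

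HSP12 was already abundant in rich medium, and together with GRE1 it ranked among the 3 highest genes by mean FPKM in every 1 h and 3 h group. Its 0 h values were 951 and 651 FPKM in rph1Δ, 3330 and 2071 in set2Δ, 2597 and 2990 in H3K36A, and 1882 and 1391 in WT. At 1 h the 8 libraries lay close together, at 20670 and 21426 FPKM in rph1Δ, 20771 and 20088 in set2Δ, 21179 and 22625 in H3K36A, and 19951 and 18666 in WT. At 3 h it had 23629 and 25230 FPKM in rph1Δ, 20237 and 22173 in set2Δ, 21086 and 20248 in H3K36A, and 29141 and 30940 in WT. The genotypes were therefore spread at 0 h, close at 1 h, and at 3 h WT was the highest.

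Relative to WT at 0 h, HSP12 was 2.12-fold lower in rph1Δ (adjusted p = 0.000129), 1.63-fold higher in set2Δ (adjusted p = 0.0031) and 1.64-fold higher in H3K36A (adjusted p = 0.0024). The set2Δ call was lost without replicate 1 of set2Δ at 0 h (log2 difference 0.29) and without replicate 2 of WT at 0 h (0.50), and the H3K36A call without that WT library (0.51). No mutant was called against WT at 1 h, with differences of 0.02 ± 0.16 in rph1Δ, -0.14 ± 0.16 in set2Δ and 0.01 ± 0.16 in H3K36A. At 3 h HSP12 was lower than WT, with differences of -0.75 ± 0.17 in set2Δ (adjusted p = 0.000559) and -0.77 ± 0.17 in H3K36A (adjusted p = 0.000455), and its difference in rph1Δ was -0.43 ± 0.16 (adjusted p = 0.0529).

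SPG1 was nearly silent in rich medium, with 20 to 79 counts per library at 0 h, and it rose fast. At 0 h it had 14.2 and 11.5 FPKM in rph1Δ, 36.7 and 21.5 in set2Δ, 31.7 and 34.0 in H3K36A, and 9.86 and 11.9 in WT. At 1 h it had 3391 and 4196 FPKM in rph1Δ, 2507 and 2288 in set2Δ, 8158 and 8005 in H3K36A, and 3452 and 3671 in WT. At 3 h the range had narrowed, at 2367 and 2525 FPKM in rph1Δ, 3171 and 3059 in set2Δ, 3477 and 3710 in H3K36A, and 2774 and 3292 in WT. At 1 h the H3K36A libraries were the highest and the set2Δ libraries the lowest, with WT and rph1Δ overlapping between them.

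Relative to WT, SPG1 was 2.65-fold higher in set2Δ (1.41 ± 0.29, adjusted p = 0.000888) and 2.89-fold higher in H3K36A (1.53 ± 0.29, adjusted p = 0.00026) at 0 h. At 1 h the strains parted, with -0.79 ± 0.11 in set2Δ (adjusted p = 1.2e-06) and 1.01 ± 0.11 in H3K36A (adjusted p = 2.3e-08), a 2.01-fold higher level in H3K36A. Neither was called against WT at 3 h, with -0.21 ± 0.11 in set2Δ and 0.01 ± 0.11 in H3K36A. With library totals the H3K36A difference at 3 h was called (0.24), and without replicate 1 of WT at 3 h the set2Δ difference was -0.34. In rph1Δ SPG1 was called at 3 h alone, at -0.44 ± 0.11 (adjusted p = 0.0041), and its change from 1 h to 3 h there was -0.37 ± 0.11, a called fall. The 0 h call in set2Δ was lost without replicate 1 of set2Δ at 0 h (0.93, adjusted p = 0.0685). The rph1Δ call at 3 h was lost without replicate 2 of WT (-0.31) or replicate 1 of rph1Δ (-0.38) at that time, and the fall from 1 h to 3 h without replicate 2 of rph1Δ at 1 h (-0.19) or replicate 1 at 3 h (-0.30).

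SPG4 shared the split between set2Δ and H3K36A at 1 h. It had 14.8 and 21.02 FPKM in rph1Δ at 0 h, 40.4 and 39.0 in set2Δ, 50.8 and 62.9 in H3K36A, and 19.2 and 22.9 in WT. At 1 h it had 3872 and 4085 FPKM in rph1Δ, 1614 and 1541 in set2Δ, 4351 and 4489 in H3K36A, and 2897 and 3127 in WT. At 3 h it had 5128 and 5511 FPKM in rph1Δ, 4103 and 4313 in set2Δ, 4311 and 4361 in H3K36A, and 4987 and 5891 in WT. At 1 h the set2Δ libraries lay below all others and the H3K36A libraries above all others, and at 3 h those of set2Δ and H3K36A overlapped.

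The log2 differences of SPG4 from WT in set2Δ were 0.89 ± 0.18 at 0 h, -1.15 ± 0.09 at 1 h and -0.62 ± 0.09 at 3 h (adjusted p = 0.000777, 9.7e-11 and 3.1e-06 in that order). In H3K36A they were 1.37 ± 0.17 at 0 h, 0.38 ± 0.09 at 1 h and -0.56 ± 0.09 at 3 h (adjusted p = 1.3e-06, 0.000943 and 1.4e-05). The 1 h difference in rph1Δ was 0.30 ± 0.09 (adjusted p = 0.0229), and leaving out replicate 1 (0.25) or replicate 2 (0.34) of WT at 1 h, or replicate 2 of rph1Δ at 1 h (0.24), ended that call.

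SPG5 had the smallest rise of the 7 genes in every genotype. Its FPKM lay between 175 and 238 in all 8 libraries at 0 h, between 515 and 853 at 1 h and between 681 and 884 at 3 h. At 1 h it had 702 and 748 FPKM in rph1Δ, 560 and 515 in set2Δ, 853 and 846 in H3K36A, and 638 and 672 in WT, the order seen for SPG4. Against WT it was called in set2Δ at 1 h (-0.51 ± 0.09, adjusted p = 2.2e-05), again in set2Δ at 3 h (-0.47 ± 0.08, adjusted p = 6.9e-05) and in H3K36A at 3 h (-0.30 ± 0.08, adjusted p = 0.0056). Its 1 h difference in H3K36A was 0.20 ± 0.08 (adjusted p = 0.055) and was called with library totals (0.38), median-of-ratios scaling (0.26), DESeq2 (0.26) and a fit of those groups alone (0.27). The H3K36A call at 3 h was lost with library totals (-0.06), in a fit of those groups alone (-0.21) and without replicate 2 of WT at 3 h (-0.16), and at 3 h the FPKM of the H3K36A and WT libraries overlapped.

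PHM7, the longest of the genes, was close to silent at 0 h, with 3.69 to 5.43 FPKM over the 8 libraries. At 1 h it had 294 and 196 FPKM in rph1Δ, 173 and 185 in set2Δ, 186 and 223 in H3K36A, and 269 and 275 in WT. At 3 h it had 293 and 304 FPKM in rph1Δ, 216 and 252 in set2Δ, 231 and 199 in H3K36A, and 235 and 172 in WT. Both set2Δ and H3K36A were below WT at 1 h, with differences of -0.82 ± 0.13 in set2Δ (adjusted p = 1.2e-05) and -0.59 ± 0.13 in H3K36A (adjusted p = 0.000676), and neither was called at 0 h or 3 h. In rph1Δ PHM7 was 0.42 ± 0.13 above WT at 3 h (adjusted p = 0.0188). That call was lost without replicate 2 of WT at 3 h (0.22), without replicate 1 of rph1Δ at 3 h (0.47) and without its replicate 2 (0.38).

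The rise over time was shared by all genotypes. All 7 genes were higher at 1 h than at 0 h in rph1Δ, set2Δ and H3K36A, libraries that the choice of genes did not use, where 37.4%, 34.1% and 36.3% of all tested genes were called higher. All 7 were also higher at 3 h than at 0 h in rph1Δ, set2Δ, H3K36A and WT, against 35.2%, 32.9%, 33.2% and 35.6% of tested genes, and the WT comparison shares its 0 h libraries with the one that chose the genes. The median log2 rise of the 7 genes at 1 h was 5.44 in rph1Δ, 5.01 in set2Δ and 5.22 in H3K36A, beside medians of 0.0542, 0.0154 and 0.0202 over all tested genes. GRE1 had the largest rise of all tested genes in rph1Δ (9.87 ± 0.13) and set2Δ (7.96 ± 0.11), and in H3K36A that place was held by SPG1 (7.72 ± 0.16), with GRE1 at 6.92 ± 0.11. In WT, SPG1 rose by 8.25, SPG4 by 7.06, PHM7 by 6.05, HSP12 by 3.46, SIP18 by 3.33 and SPG5 by 1.60 on the log2 scale, which placed SPG1 3rd, SPG4 6th and PHM7 17th of the tested genes and SPG5 813th, where 37.3% of tested genes were called higher.

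Between 1 h and 3 h the genes no longer moved together. In rph1Δ 6 were higher and 1, SPG1, was lower, where 41.4% of tested genes were called, and in set2Δ 6 were higher (27% called higher). In WT 5 were higher (27.4% called higher), GRE1 by 0.72, SIP18 by 2.79, HSP12 by 0.93, SPG4 by 1.15 and SPG5 by 0.62. This WT comparison shares its 1 h libraries with the one that chose the genes. The choice favours high WT values at 1 h and so a smaller gain after it, and nothing is read from the WT count against that share. In H3K36A GRE1 (0.93 ± 0.08) and SIP18 (2.26 ± 0.11) rose and SPG1 fell (-0.93 ± 0.11), where 48.9% of tested genes were called, and HSP12 (0.15 ± 0.16), SPG4 (0.21 ± 0.09), SPG5 (0.12 ± 0.08) and PHM7 (0.31 ± 0.13) were not called. With library totals, or without replicate 2 of rph1Δ at 1 h, the count in rph1Δ was 4. The HSP12 rise in rph1Δ lost its call without replicate 1 (0.44) or replicate 2 (0.53) at 1 h or replicate 2 at 3 h (0.42), and the PHM7 rise without replicate 2 at 1 h (0.30). In WT the PHM7 change of -0.13 ± 0.13 was called as a fall with library totals (-0.42) and without replicate 1 of WT at 3 h (-0.35), and SPG1 had 0.06 ± 0.11. The SPG1 fall in H3K36A was 1.91-fold. The 7 genes took 0.0514% to 0.140% of all counts at 0 h, 1.74% to 2.41% at 1 h and 2.16% to 3.10% at 3 h.

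**Figure D3:**
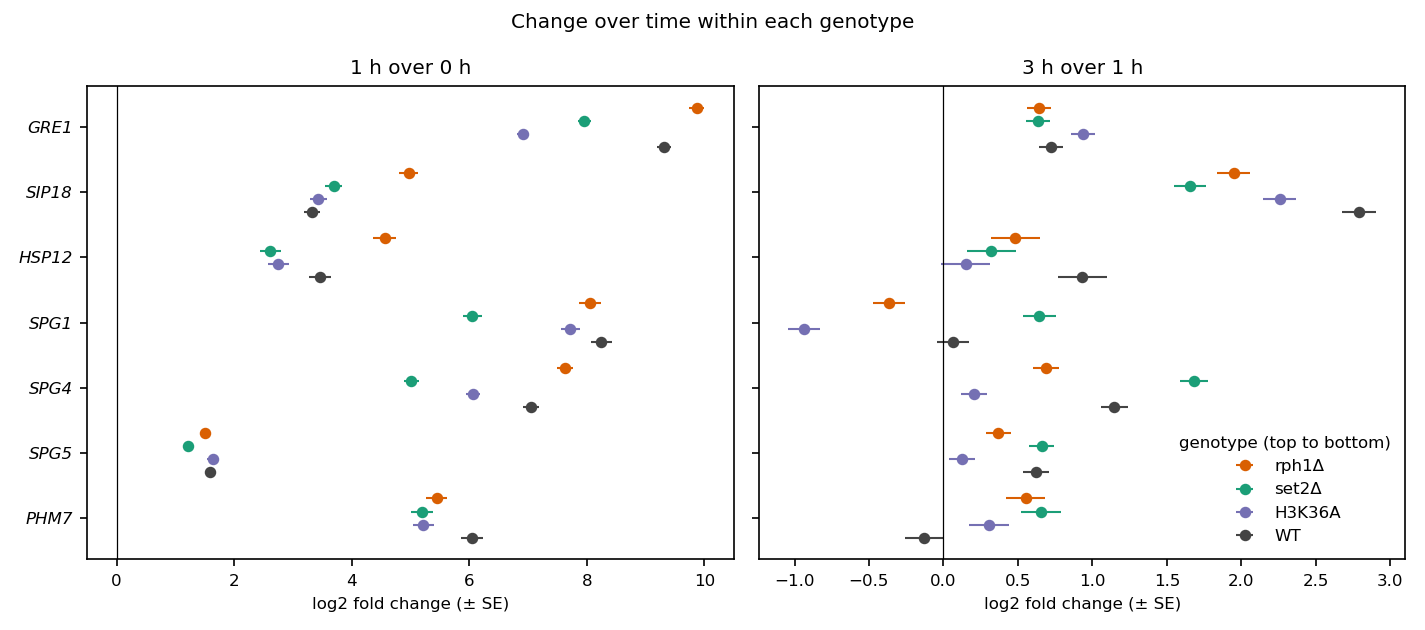
Log2 fold change (± SE) of each gene at 1 h over 0 h and at 3 h over 1 h, with rph1Δ, set2Δ, H3K36A and WT from top to bottom within each gene. The WT points of the first panel chose the genes and carry no test, and in the second panel SPG1 lies at 0.64 in set2Δ and -0.93 in H3K36A.

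At 0 h, 4 of the 7 genes, GRE1, HSP12, SPG1 and SPG4, were higher than WT in set2Δ, where 13.3% of tested genes were called higher, and the same 4 were higher in H3K36A, where 13.4% were called higher. The 2 comparisons share the WT libraries, which the choice of genes used, so nothing is read from these counts against those shares. Without replicate 1 of set2Δ at 0 h the set2Δ count was 2, GRE1 and SPG4. SIP18 lay below WT at 0 h in set2Δ (-0.38 ± 0.18) and H3K36A (-0.49 ± 0.18, edgeR quasi-likelihood, adjusted p = 0.0536), neither called. The H3K36A value was called lower with median-of-ratios scaling (-0.51), with no filter (-0.49) and with DESeq2 (-0.51). SPG5 and PHM7 were called in neither strain at 0 h. In rph1Δ 2 genes, SIP18 and HSP12, were lower than WT and none was higher (2.41% called lower).

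After 1 h in minimal medium, 5 of the 7 genes were lower than WT in set2Δ, GRE1, SPG1, SPG4, SPG5 and PHM7, where 27.3% of tested genes were called lower. In H3K36A 3 were lower, GRE1, SIP18 and PHM7, and 2 were higher, SPG1 and SPG4 (46.6% called in either direction), and in rph1Δ 2 were higher, SIP18 and SPG4 (5.9% called higher). The choice of genes used the WT libraries of 1 h and favours values below WT, so nothing is read from the 1 h counts against those shares. By 3 h GRE1, SIP18, HSP12, SPG4 and SPG5 were lower than WT in set2Δ (27.8% called lower) and the same 5 in H3K36A (27.6% called lower), while rph1Δ had 1 higher, PHM7, and 2 lower, SIP18 and SPG1 (28% called in either direction). The rph1Δ counts depended on single libraries: at 1 h the count was 0 without replicate 2 of WT or replicate 2 of rph1Δ, and at 3 h it was 5 without replicate 1 of WT and 1 without replicate 2 of WT or replicate 1 of rph1Δ.

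**Figure D4:**
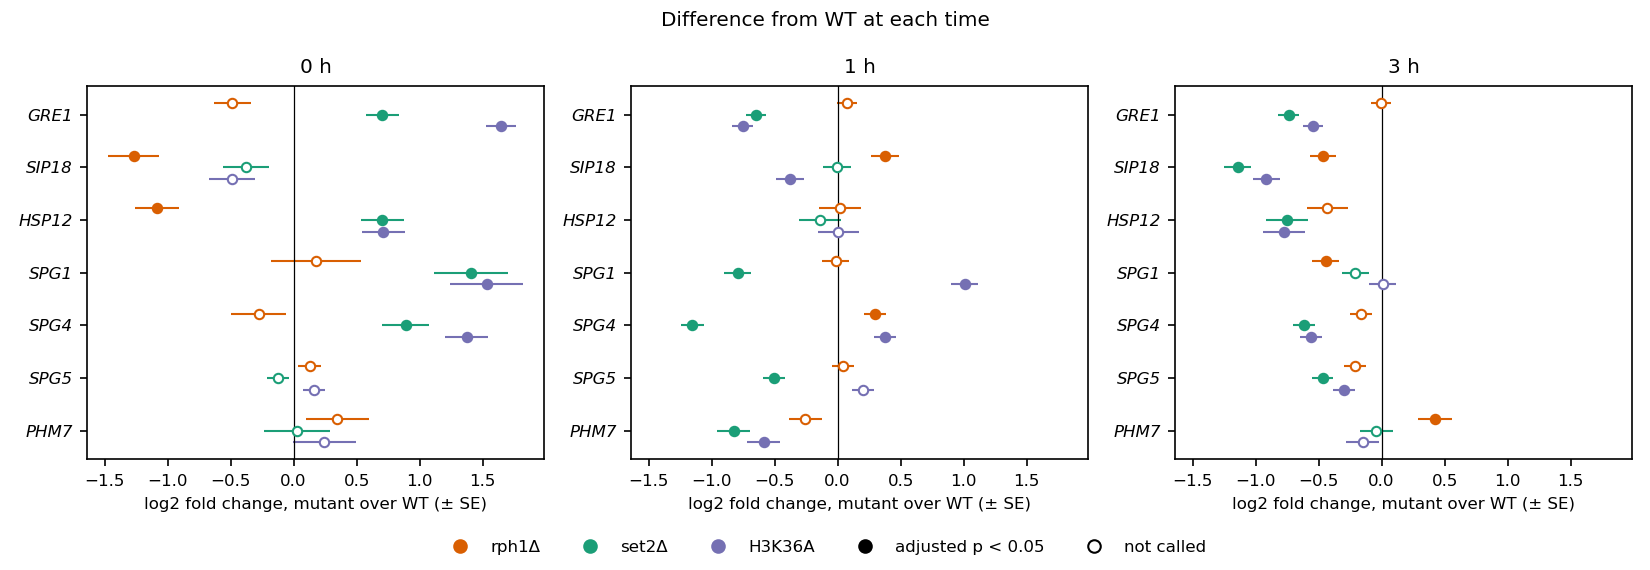
Log2 fold change (± SE) of each gene in rph1Δ, set2Δ and H3K36A over WT at 0 h, 1 h and 3 h, with filled points called at adjusted p under 0.05 and open points not called. SPG1 and SPG4 lie right of zero in both set2Δ and H3K36A at 0 h, and at 1 h left of zero in set2Δ and right of it in H3K36A.

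The changes from 0 h were also compared with the change in WT. In set2Δ 6 of the 7 genes rose less than in WT by 1 h (17.2% of tested genes called lower) and 6 by 3 h (19.1% called lower); the exceptions were SIP18 at 1 h (0.37 ± 0.21) and PHM7 at 3 h (-0.07 ± 0.29). The rise of SPG1 at 1 h differed by -2.20 ± 0.31 in set2Δ and that of SPG4 by -2.04 ± 0.20. In H3K36A GRE1 (-2.40 ± 0.14), HSP12, SPG4 and PHM7 rose less by 1 h (18% called lower), and GRE1, HSP12, SPG1, SPG4 and SPG5 by 3 h (16.6% called lower). In rph1Δ 3 genes, GRE1, SIP18 and HSP12, rose more than in WT by 1 h (3.29% called higher), of which SIP18 at 1.65 ± 0.23 was the largest, and 1, SIP18, by 3 h (3.01% called higher). These tests subtract the WT change that chose the genes at 1 h, or share its 0 h libraries at 3 h. The choice favours a smaller rise in a mutant, and nothing is read from these counts against those shares. In set2Δ the 1 h calls of SPG5 and PHM7 were lost with library totals (-0.19 and -0.66) and with median-of-ratios scaling (-0.29 and -0.76). With library totals SIP18 was called at 1 h in set2Δ as rising more than in WT (0.56). The HSP12 call at 1 h in set2Δ was lost with DESeq2 (-0.76). The SPG5 call at 3 h in set2Δ was lost with library totals (-0.12), median-of-ratios scaling (-0.28), DESeq2 (-0.28) and a fit of those groups alone (-0.24). Without replicate 1 of set2Δ at 0 h the set2Δ count at 1 h was 3, GRE1, SPG1 and SPG4, since HSP12 (-0.37), SPG5 (-0.19) and PHM7 (-0.87) lost their calls. The H3K36A count at 1 h was 2, GRE1 and SPG4, with library totals or median-of-ratios scaling and without replicate 2 of WT or of H3K36A at 0 h or replicate 1 of either at 1 h. The GRE1 call in rph1Δ at 1 h was lost in 7 of the 8 fits that left out 1 library (0.39 without replicate 1 of WT at 0 h), and the SIP18 call at 3 h in 6 of 8 (0.54 without that library).

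Set directly against each other, without WT libraries, set2Δ and H3K36A differed in all 3 SPG genes at 1 h. At that time SPG1 was 3.48-fold lower in set2Δ (-1.80 ± 0.11, adjusted p = 1.8e-12), SPG4 2.89-fold lower (-1.53 ± 0.09, adjusted p = 9.6e-13) and SPG5 1.63-fold lower (-0.71 ± 0.09, adjusted p = 3.9e-07), while SIP18 was higher (0.37 ± 0.11, adjusted p = 0.0127), where 29.5% of tested genes were called. At 0 h the single call was GRE1, 1.92-fold lower in set2Δ (-0.94 ± 0.11, adjusted p = 5.6e-06), where 1.18% of tested genes were called lower. At 3 h edgeR called none of the 7 genes (4.69% of tested genes called), with 2 at an unadjusted p under 0.05 and 1 called by DESeq2, GRE1. The 3 h differences were -0.22 ± 0.11 for SPG1, -0.06 ± 0.09 for SPG4 and -0.17 ± 0.08 for SPG5. The SIP18 call at 1 h was lost without replicate 1 of set2Δ (0.30) or replicate 1 of H3K36A (0.29) at 1 h.

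Whether that gap itself changed with time was tested after these values had been seen. From 0 h to 1 h SPG1 rose less in set2Δ than in H3K36A, with a difference of -1.67 ± 0.26 (edgeR quasi-likelihood, adjusted p = 4.9e-05), as did SPG4 at -1.05 ± 0.18 (adjusted p = 0.000162) and SPG5 at -0.42 ± 0.12 (adjusted p = 0.0219), whereas GRE1 rose more in set2Δ by 1.04 ± 0.14 (adjusted p = 4.7e-06), with 12.8% of tested genes called. From 1 h to 3 h the signs turned, at 1.58 ± 0.15 for SPG1 (adjusted p = 2.8e-08), 1.48 ± 0.13 for SPG4 (adjusted p = 3.3e-09) and 0.54 ± 0.12 for SPG5 (adjusted p = 0.0026), while SIP18 gained less in set2Δ at -0.60 ± 0.15 (adjusted p = 0.0086), with 11.9% called. Both comparisons share the 1 h libraries, so their opposite signs are not independent. The SPG5 value from 0 h to 1 h lost its call in 5 of the 8 fits that left out 1 library, with -0.27 without replicate 1 of set2Δ at 0 h. SIP18 lost its call from 1 h to 3 h without replicate 1 of set2Δ at 1 h, replicate 1 of H3K36A at 1 h or replicate 2 of H3K36A at 3 h.

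Pearson correlations of log2 CPM (counts scaled to library size with the TMM factor) over the 12 group means were 0.904 to 0.994 for the 21 pairs of genes, all of which share the step from 0 h. Over the 8 groups of 1 h and 3 h the 6 pairs with SPG1 ran from -0.235 with GRE1 to 0.431 with SPG5. The 15 pairs without SPG1 ran from 0.548 for HSP12 and PHM7 to 0.980 for SPG4 and SPG5, with 0.869 for the paralogs GRE1 and SIP18. These points share libraries and are a description. The genes whose 12-group profile was most like that of GRE1 were CTT1, the cytosolic catalase (0.998), MSC1 and GLO1; for SIP18 they were PIR3 (0.988), AIM41 and LIP1, and for HSP12 DDR2 (0.994), TKL2 and MSC1. SPG1 was most like HFD1 (0.996), MHO1 and POM33, SPG4 most like NCE102 (0.997), MSC1 and LSP1, SPG5 most like SNX4 (0.992), ERR3 and SNF7, and PHM7 most like NDE2 (0.995), NQM1 and PNS1. NCE102, FMP16, NQM1, GLO1, MSC1, GAD1, ATG8 and NDE2 followed the mean profile of the 7 most closely, at 0.997 for NCE102.

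Of 4 other hydrophilin genes, YJL144W and STF2 rose at 1 h in rph1Δ, set2Δ, H3K36A and WT, and YNL190W and NOP6 fell in all 4 genotypes. At 1 h YJL144W was -0.88 ± 0.11 from WT in set2Δ and -0.33 ± 0.11 in H3K36A, both called, the second not with library totals, and STF2 was -0.48 ± 0.11 in set2Δ against H3K36A (called). Of 6 other stationary phase genes, 4 rose at 1 h in rph1Δ, 6 in set2Δ, 5 in H3K36A and 6 in WT, and none fell, where 37.4%, 34.1%, 36.3% and 37.3% of all tested genes were called higher. Against WT, 5 of the 6 were higher at 0 h in set2Δ (13.3% of all tested genes) and 4 in H3K36A (13.4%), with SNO1 at 2.76 ± 0.30 and 2.36 ± 0.31 and SNZ1, its divergently transcribed neighbour in vitamin B6 synthesis, at 1.95 ± 0.10 and 1.61 ± 0.10. At 1 h 3 of the 6 were higher than WT and 1 was lower in set2Δ (27.3% of all tested genes called lower). The share of all genes called higher there is not given, so the 3 are a count only. In H3K36A 4 were higher than WT at 1 h and none lower (46.6% called in either direction). In set2Δ against H3K36A at 1 h 2 were higher and 2 lower (29.5% called in either direction). SPI1, a cell wall protein gene, was the lowest of them at 1 h in set2Δ (-1.42 ± 0.11, called). Its value in H3K36A was -0.13 ± 0.10, which was not called, and in set2Δ against H3K36A directly it was -1.29 ± 0.11 (called).

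Of 18 general stress genes, among them genes of trehalose and glycogen metabolism, chaperones and a catalase, all 18 rose at 1 h in every genotype (34.1% to 37.4% of all tested genes called higher), with a median log2 rise of 2.58 in rph1Δ, 1.88 in set2Δ, 2.19 in H3K36A and 3.02 in WT. At 0 h 17 of them were higher than WT in set2Δ (13.3% of all tested genes) and 16 in H3K36A (13.4%), with TSL1 at 1.28 ± 0.12 and 1.75 ± 0.12 and HSP42 at 1.25 ± 0.10 and 1.41 ± 0.10. At 1 h 13 were lower (27.3% of all tested genes) and 1 higher in set2Δ, and 3 lower and 6 higher in H3K36A (46.6% called in either direction). In set2Δ against H3K36A 13 were lower and none higher (29.5% called in either direction), with GPH1 at -0.74 ± 0.08 and TPS2 at -0.64 ± 0.09. At 3 h 12 were lower in set2Δ (27.8% of all tested genes) and 9 in H3K36A (27.6%), led by HSP26 at -1.07 ± 0.10 and -1.10 ± 0.10. In rph1Δ 4 were higher and 3 lower at 0 h (2.41% of all tested genes called lower), 5 and 1 at 1 h (5.9% called higher), and 2 and 3 at 3 h (28% called in either direction). Where the share of 1 direction alone is given, the genes of the other direction are a count only. The list medians at 1 h were -0.36 in set2Δ and 0.07 in H3K36A, beside -0.05 for all tested genes in each. The split depended on the scaling. With library totals 3 were higher and 8 lower in set2Δ at 1 h, and 11 and 3 in H3K36A; at 3 h these counts were 1 and 5 in set2Δ and 3 and 3 in H3K36A, where the median was 0.06 in place of -0.17. The direct comparison of set2Δ with H3K36A at 1 h still had 13 lower, and at 0 h the counts against WT stayed at 17 and 16.

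Of 10 regulators, 1 was higher than WT and 3 were lower at 1 h in set2Δ (27.3% of all tested genes called lower, the share called higher not given). In H3K36A 2 were higher than WT and 2 lower at 1 h (46.6% called in either direction). MSN4 was the lowest at 1 h in both set2Δ (-0.99 ± 0.14) and H3K36A (-1.11 ± 0.14). MSN2, its paralog, was not called in either (-0.16 ± 0.14 and -0.33 ± 0.14). RIM15, a kinase gene of quiescence entry, was higher than WT in both, by 0.45 ± 0.09 and 0.66 ± 0.09. In set2Δ against H3K36A at 1 h 3 were lower and none higher (29.5% called in either direction). Among them YAK1, a kinase gene of the stress response, was at -0.63 ± 0.10. In rph1Δ at 3 h 6 regulators were higher than WT and 1 was lower (28% of all tested genes called in either direction). The higher ones included MSN4 (0.89 ± 0.14) and GIS1 (0.65 ± 0.17), and the lower one was RPH1, which is on the list. With library totals 8 were higher at 3 h in rph1Δ.

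Genes of the phosphate pathway were counted beside PHM7, and they moved in both directions. Of 13 such genes 5 rose and 6 fell at 1 h in rph1Δ, 2 and 7 in set2Δ, 2 and 9 in H3K36A and 2 and 9 in WT (34.1% to 37.4% of all tested genes called higher). With library totals these counts were 6 and 2, 5 and 6, 2 and 7, and 2 and 7. The list medians were -0.09 in rph1Δ, -0.24 in set2Δ, -0.90 in H3K36A and -0.58 in WT. Those of all tested genes were 0.05, 0.02, 0.02 and 0.06 in that order. The share of all genes called lower is not given, so the falls are counts only. PHO84, the high-affinity phosphate transporter gene, had a log2 change of -5.95 ± 0.18 in WT, while PHM8, a phosphatase gene, rose by 2.74 ± 0.12. At 1 h PHM8 was lower than WT in set2Δ (-0.92 ± 0.10) and H3K36A (-0.72 ± 0.10). Of the 3 relatives of PHM7, CSC1 rose at 1 h in all genotypes, by 1.23 ± 0.08 in WT, while in WT RSN1 fell (-0.55 ± 0.12) and SPO75 was not called (-1.99 ± 1.17).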

How the data were processed

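RNA-seq libraries of yeast (24, 2 in each of 12 groups) were given as 1 table. Per the submitters' processing notes the authors used cutadapt 1.9.1, HISAT2 2.0.1 and HTSeq 0.6.1 with the sacCer3 build; no source used here says whether counting used strand. The deposited values are raw read counts per gene and the authors' FPKM, and every FPKM could be rebuilt from the counts, exonic length and library total (within 0.0051). Counts, not FPKM, entered the tests.

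The tests took the 6503 of 7126 genes that reached FPKM 1 in 2 libraries or more (623 left out) with edgeR 4.0.16 (R 4.3.3), TMM scaling and the quasi-likelihood test, with all 12 groups in 1 fit and no covariate; p-values were adjusted by Benjamini-Hochberg over all tested genes. Standard errors are the log2 fold change divided by the square root of F. Depth was 6623458 to 7677684 counts per library, and the floor of 3 counts given for a count of 0 covers counting error only. Alternatives were median-of-ratios scaling, library totals, no filter, a replicate block, a fit of the compared groups alone, DESeq2 1.42.0, limma-trend (limma 3.58.1) on log2(FPKM + 1) and each library left out.

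The members and lists were chosen with earlier results of these data known. Named genes are all 7 members in every comparison, the highest and lowest genes by fold change of each list (others were named after their values were seen), and the genes with the highest Pearson correlation to a member over the 12 group means. Lists were other hydrophilins, other stationary phase genes, general stress genes, stress regulators, phosphate genes and relatives of PHM7, with mating type markers as a check. The 6 a cell markers were all lower and the 4 alpha cell markers all higher in rph1Δ than WT at 0 h. At 1 h and at 3 h 5 a cell markers were lower and 1 was not called. Of the alpha cell markers 2 were higher, 1 lower and 1 not called at 1 h, and 2 were higher and 2 not called at 3 h. Promoters were read from the R64 genome.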

Additional observations from a re-analysis of the deposited data

Results flagged for a closer look

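Tests of the difference between a mutant's change from 0 h and that of WT, or between the changes of 2 mutants, picked out the following values, each a difference of log2 fold changes called by edgeR's quasi-likelihood test over all tested genes. They are given as values.

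By 1 h in rph1Δ, the rise exceeded that of WT by 0.56 for GRE1, 1.65 for SIP18 and 1.10 for HSP12, and by 3 h by 0.80 for SIP18. In set2Δ the 1 h difference from the WT change was -1.35 for GRE1, -0.84 for HSP12, -2.20 for SPG1, -2.04 for SPG4, -0.38 for SPG5 and -0.85 for PHM7. The 3 h difference in set2Δ was -1.44 for GRE1, -0.77 for SIP18, -1.45 for HSP12, -1.61 for SPG1, -1.51 for SPG4 and -0.34 for SPG5. In set2Δ the calls of SPG5 and PHM7 at 1 h and of SPG5 at 3 h were lost with library totals and with median-of-ratios scaling.

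In H3K36A the 1 h difference from the WT change was -2.40 for GRE1, -0.71 for HSP12, -0.99 for SPG4 and -0.83 for PHM7. The 3 h difference in H3K36A was -2.18 for GRE1, -1.49 for HSP12, -1.52 for SPG1, -1.93 for SPG4 and -0.46 for SPG5. Between the mutants, the 0 h to 1 h change in set2Δ minus that in H3K36A was 1.04 for GRE1, -1.67 for SPG1, -1.05 for SPG4 and -0.42 for SPG5. From 1 h to 3 h it was -0.60 for SIP18, 1.58 for SPG1, 1.48 for SPG4 and 0.54 for SPG5. These last 8 values come from the pair of comparisons chosen after the data had been seen. All tests of a mutant against WT share the WT libraries, and the choice of genes used those of 0 h and 1 h.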

How the results depend on the processing

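Of 217 tested member results over 31 comparisons 143 were called, and no called value changed sign under any alternative. Under the settings that kept all libraries, a member result, called or not, stayed on its side of the threshold 1432 times, lost its call 48 times and gained one 39 times. With library totals the number of members called was 4 in place of 7 for rph1Δ at 3 h against 1 h, 3 in place of 1 for the rph1Δ change by 3 h against that of WT, 2 in place of 4 for the H3K36A change by 1 h (also 2 with median-of-ratios scaling) and 2 in place of 1 for set2Δ against H3K36A at 0 h. With limma it was 4, 1, 1, 3 and 2 for rph1Δ at 3 h against 1 h, rph1Δ against WT at 1 h and at 3 h, H3K36A against WT at 3 h and set2Δ against H3K36A at 0 h. A fit of the compared groups alone gave 5 in place of 3 for H3K36A at 3 h against 1 h, 2 in place of 4 for set2Δ against WT at 0 h, 3 for the rph1Δ change by 3 h and 2 in place of 0 for set2Δ against H3K36A at 3 h. DESeq2 gave 2 and 1 for those last comparisons. The cause was not tested.

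Leaving out 1 library gave 4 to 6 members for rph1Δ at 3 h against 1 h, 0 to 2 for rph1Δ against WT at 1 h and 1 to 5 at 3 h, 2 to 4 for set2Δ against WT at 0 h, 0 to 2 for the rph1Δ change by 3 h, 3 to 6 for the set2Δ change by 1 h, 2 to 4 for the H3K36A change by 1 h and 1 to 2 for set2Δ against H3K36A at 0 h. In the WT description the 1 h rise of SPG5 was 1.70 with library totals and 1.69 with limma in place of 1.60, and that of PHM7 6.15, 5.99 and 5.82 with library totals, the compared groups alone and limma in place of 6.05.

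Replicate numbers did not pair the samples: over 66 pairs of groups the correlation of same-numbered deviations ran from -0.406 to 0.279, with 13 over 0.1. With the replicate number as a block (replicate block), 4 members were called in place of 3 for H3K36A at 3 h against 1 h (SPG4 at 0.21, adjusted p = 0.0299) and 4 in place of 3 for rph1Δ against WT at 3 h (HSP12 at -0.43, adjusted p = 0.0478). The block changed no other member count.

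Over all genes, a fit of the compared groups alone moved the number called to 499 from 314 for rph1Δ against WT at 0 h, 1052 from 1820 at 3 h, 656 from 1435 for set2Δ against WT at 0 h, 884 from 554 for the rph1Δ change by 1 h, 15 from 177 and 735 from 305 for set2Δ against H3K36A at 0 h and 3 h, and 526 from 831 for the set2Δ change by 1 h against that of H3K36A. With limma the rph1Δ change by 3 h had 256 in place of 440. With library totals the share of higher genes among those called was 67.4%, 70.6% and 73.9% in rph1Δ against WT at 0 h, 1 h and 3 h in place of 50%, 38.9% and 41.4%, 70.8% and 74.8% in set2Δ against WT at 1 h and 3 h in place of 42.8% and 42.5%, and 69.5%, 65.4% and 75.0% in H3K36A against WT at 0 h, 1 h and 3 h in place of 54.6%, 42.8% and 40.4%. It was 27.8%, 27.9%, 31.1% and 27.8% in rph1Δ, set2Δ, H3K36A and WT at 3 h against 1 h in place of 60.5%, 58.2%, 55.6% and 59.5%, and 63.2% in place of 49.5% in set2Δ at 1 h against 0 h. For changes from 0 h against that of WT it was 64.8% in place of 44.5% in rph1Δ by 3 h, 66.2% and 70.8% in place of 38.9% and 41.6% in set2Δ by 1 h and 3 h, and 52.8% and 67.2% in place of 35.5% and 39.1% in H3K36A. For set2Δ against H3K36A it was 44.9% in place of 56.5% at 0 h and 68.5% in place of 54.6% for the change by 1 h. SPG1 at 0 h rests on 20 to 79 counts per library.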
